A study of Mus musculus with 34 samples.

Results

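The third postnatal week was examined by comparing 3 astrocyte libraries of postnatal day 21 (P21) with 4 of postnatal day 14 (P14), which are 7 of the 34 libraries of the series. The members were taken by their age labels, and every gene in the table entered the comparison. All 7 libraries held polyadenylated RNA of cells pulled magnetically from the cortex of male mice of WT genotype, labelled as astrocyte, with no treatment named. Both groups share sex, genotype, tissue and isolation, and differ by label only in age. The labels name neither a strain nor the antigen used in the isolation, and do not say whether a library stands for 1 animal, a pool or a repeat, so every p-value below measures only the spread between these libraries.

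Astrocytes are the glial cells that clear glutamate and potassium from around synapses, couple to each other through gap junctions, contact blood vessels with their endfeet and pass metabolites to neurons. In the rodent cortex they arise from radial glia, divide locally after birth, then leave the cell cycle and grow the fine processes that enclose synapses. Over the same weeks neurons form synapses in large numbers and oligodendrocytes begin to wrap axons with myelin.

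Values are TPM, a length-corrected abundance scaled to the same total in every library. They hold no read counts, and sequencing depth is therefore unknown. Genes were tested with limma on log2(TPM + 1), on which scale the change of a gene of low level is understated. A gene that passed at an adjusted p under 0.05 (Benjamini-Hochberg over all genes tested) is said to have risen or fallen at P21.

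The ages differed in how many genes were listed at 0 TPM, and this bounds what can be said of genes of low level. At P14 the 4 libraries had 4595, 4719, 4540 and 4819 genes at 0 of 20613 with values, and at P21 the 3 libraries had 3366, 3523 and 3505. The difference was -1204 genes (exact permutation test over 35 splits, two-sided p = 0.0571, the smallest this design allows). Age and the number of genes at 0 cannot be told apart here. Haemoglobin transcripts also set the ages apart: the 4 haemoglobin genes took 1.04, 0.396, 0.780 and 0.926% of all TPM at P14 and 3.62, 3.93 and 6.76% at P21. Within P14, libraries 1 and 4 held more endothelial, pericyte and immediate early transcripts than libraries 2 and 3. Within P21, library 3 had the lowest myelin and the highest haemoglobin level.

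The astrocyte label was set against the level of marker genes. Apoe, the lipid carrier secreted by astrocytes, had 42425, 48428, 43887 and 41066 TPM at P14 and 59720.0, 58102 and 45485 TPM at P21, and Slc1a3, the glutamate transporter GLAST, had 2887, 3708, 3109 and 3439 TPM at P14 and 3371, 3102 and 3302 TPM at P21. Of the 28 mature astrocyte markers, all were above 0 in all 7 libraries. The 12 most abundant genes also included Ptgds, prostaglandin D synthase, known from meninges, choroid plexus and oligodendrocytes, at 19409, 24661, 24122 and 10071 TPM at P14 and 8854, 12369 and 9926 TPM at P21, and the globins Hbb-bs and Hba-a2. Ddx3y, a Y-linked gene, was present in every library, from 30.4 to 46.0 TPM.

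Of 13515 genes tested, 3867 (28.6%) differed between the ages: 1585 (11.7%) rose and 2282 (16.9%) fell at P21. Most differences were modest, and 423 of these genes, 361 higher and 62 lower, differed by at least 1 log2 unit. In TPM as deposited, more genes rose than fell at low levels and more fell than rose at high levels. Of the 3278 genes with a mean under 5 TPM, 643 rose and 144 fell, while of the 1642 genes at 100 TPM or more, 99 rose (6.03%) and 761 fell (46.3%, median difference -0.25). After quantile normalization this pattern was not seen, with 419 risen and 375 fallen under 5 TPM and 246 and 247 at 100 TPM or more. Of the 3278 genes under 5 TPM, 98 were at 0 in at least 1 P14 library. A gene could also enter the test through the 3 P21 libraries alone, and the part of this in the rises at low levels was not tested. The split between risen and fallen genes depended on the scaling. After median-of-ratios rescaling 2079 genes rose and 1780 fell, after quantile normalization 1690 and 1697, and with the erythroid genes left out and the rest rescaled 1781 rose and 1554 fell. Without P21 replicate 2 the count of changed genes was 2099, and without P14 replicate 3 it was 2555. A fit of all 34 libraries called 1699 genes, and 58 of the 152 named genes called here kept their call in it. The counts of each gene list below stand against the shares of all genes tested, 11.7% risen and 16.9% fallen.

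**Figure D1:**
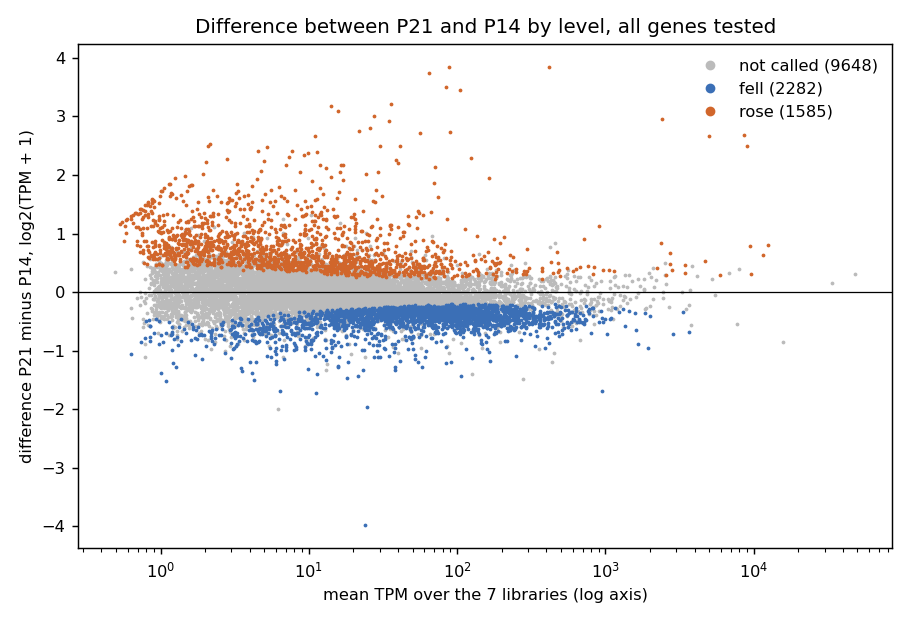
Difference between P21 and P14 in log2(TPM + 1) (vertical axis) against the mean TPM over the 7 libraries (log axis) for the 13515 genes tested, with the 1585 genes that rose in orange, the 2282 that fell in blue and the others in grey. Blue points are dense above about 20 TPM and orange points are dense at low levels, and the few differences above 2 log2 units are nearly all higher at P21.

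Of 23 genes of radial glia and immature astrocytes tested, 11 fell and 1 rose, and the median difference was -0.37 against -0.048 over all genes tested. Fabp7 (ENSMUSG00000019874, chr10:57784881-57788450 in mm10), the brain fatty acid binding protein of radial glia, had 1531, 1511, 1413 and 940.2 TPM at P14 and 507, 471 and 286 TPM at P21, so that every P21 library lay under the lowest P14 library. Its mean fell 3.20-fold, from 1349 ± 277 to 421 ± 118 TPM (SD, n = 4 and 3, log2 difference -1.69, SE 0.24, adjusted p = 0.00273). Nrep, a neuronal regeneration related protein also found in immature glia, had 92.7, 62.7, 75.4 and 79.2 TPM at P14 and 32.9, 32.4 and 28.3 TPM at P21, a fall of 2.48-fold (log2 difference -1.28, SE 0.12, adjusted p = 0.000633). The groups were far apart for this gene, the highest P21 library lying well under the lowest P14 library.

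Igfbp2, an insulin-like growth factor binding protein, had 949, 1078, 975 and 840.3 TPM at P14 and 584, 643 and 551 TPM at P21 (log2 difference -0.69, SE 0.10, adjusted p = 0.00169). Tnc, the matrix glycoprotein tenascin C, fell from 10.3 to 4.99 TPM (log2 difference -0.90, SE 0.16, adjusted p = 0.00353). Ptprz1, a receptor phosphatase of radial glia, fell from 304 to 209 TPM, and its ligand pleiotrophin, Ptn, from 4349.8 to 2699.7 TPM (adjusted p = 0.00273 and 0.00294). The cytoskeletal regulators Marcksl1 (-0.84) and Marcks (-0.56), the tetraspanin Cd9 (-0.62), the intermediate filament Vim (-0.50) and the transcription factor Pax6 (-0.34) fell as well, in log2 units. Cd24a, a surface glycoprotein of young neurons and ependyma, was the member that rose (log2 difference 0.54, SE 0.16, adjusted p = 0.031). In a fit of all 34 libraries of the series, in which all ages share 1 estimate of the spread, 1 of these 23 genes was called lower and none higher, and Fabp7 had an adjusted p of 0.135. Leaving out 1 library in turn, 10 to 13 fell, the fewest without P21 replicate 2.

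**Figure D2:**
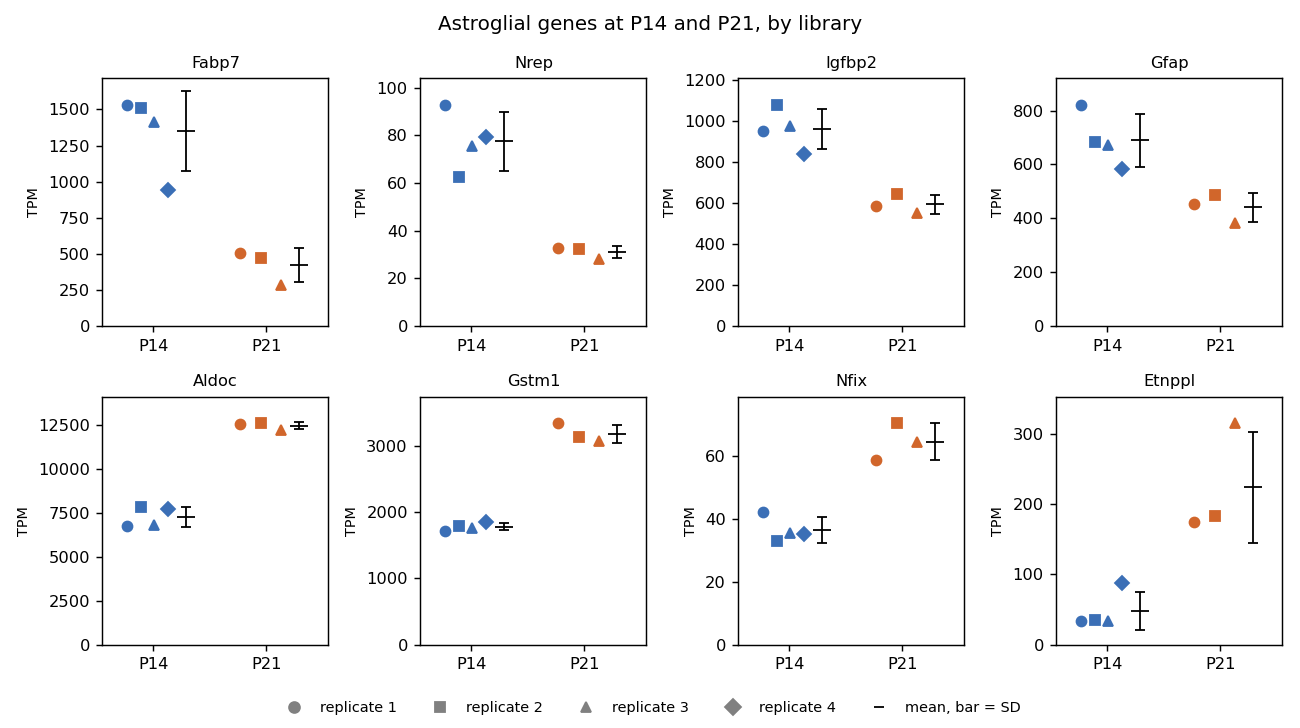
TPM of 8 astroglial genes in each P14 (blue) and P21 (orange) library, with the mean and SD of each age in black. Fabp7, Nrep, Igfbp2 and Gfap are lower and Aldoc, Gstm1, Nfix and Etnppl are higher in every P21 library than in any P14 library.

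Of 32 cell cycle genes, 29 had enough signal to be tested, 12 fell, none rose and all 29 had a difference below 0 (median -0.46). Cdk1, the kinase that drives entry into mitosis, had 18.3, 12.5, 13.7 and 13.6 TPM at P14 and 6.35, 6.61 and 5.66 TPM at P21, a fall of 2.34-fold (log2 difference -1.09, SE 0.14, adjusted p = 0.00104). Its P21 values spanned less than 1 TPM and lay under the lowest P14 value of 12.5 TPM. Tk1, thymidine kinase of the nucleotide salvage path, fell from 7.87 to 3.59 TPM (log2 difference -0.96, SE 0.16, adjusted p = 0.00267), and Ccnb2, cyclin B2, from 5.31 to 2.55 TPM (log2 difference -0.82, SE 0.14, adjusted p = 0.00314). The chromosomal passenger genes Aurkb (-0.73), Birc5 (-0.66) and Cdca8 (-0.77), the anaphase activator Cdc20 (-0.65), the cyclins Ccna2 (-0.64) and Ccnb1 (-0.62), and the DNA synthesis genes Rrm2 (-0.59), Tyms (-0.46) and Pcna (-0.28) completed the 12, in log2 units. Top2a had 5.84, 4.65, 4.17 and 4.75 TPM at P14 and 2.38, 4.37 and 3.14 TPM at P21, with 1 P21 library inside the P14 range (adjusted p = 0.0772), and Mki67 was too low to test at 0.792 ± 0.247 TPM (SD, n = 4) at P14 and 0.508 ± 0.181 TPM (SD, n = 3) at P21. These levels are low beside P7, where the list summed to 575 TPM, against 312 at P14, 221 at P21 and 241 at P28. In bulk RNA, fewer cells of a kind and less RNA per cell cannot be told apart. In the fit of all 34 libraries 5 of the 29 were called lower, and after quantile normalization 23. Among the fits with 1 library omitted, 6 to 16 fell, the fewest without P21 replicate 1.

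The promoters of these genes are shown because genes of mitosis are known to share a CCAAT box, bound by NF-Y, and a cell cycle homology region (CHR), bound by repressor complexes in resting cells. In the 250 bases before the RefSeq start (GRCm38.p6), searched on both strands, CCAAT occurred in 22 of the 27 cell cycle genes with a promoter (81.5%) and in 37.5% of all 27025 genes with one. TTTGAA, the CHR letters, occurred in 8 of 27 (29.6%) against 18.3% of all. Of the 10 fallen genes with a promoter, 7 held CCAAT and 3 held TTTGAA. The NF-Y motif was thus no more frequent among the fallen genes than over the cell cycle list. The CHR letters were about as frequent in both. The sequences of Cdk1 (chr10:69352913-69353162, minus strand) and Ccnb2 (chr9:70421555-70421804, minus strand) follow 5′ to 3′ up to the start, with both motifs in capitals in either direction; the motifs do not overlap each other.
Cdk1: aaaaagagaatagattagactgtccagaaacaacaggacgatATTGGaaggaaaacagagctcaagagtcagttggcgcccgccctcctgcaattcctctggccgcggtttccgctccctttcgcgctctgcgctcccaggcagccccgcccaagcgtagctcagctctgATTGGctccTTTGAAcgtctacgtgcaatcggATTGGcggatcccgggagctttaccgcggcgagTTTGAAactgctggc
Ccnb2: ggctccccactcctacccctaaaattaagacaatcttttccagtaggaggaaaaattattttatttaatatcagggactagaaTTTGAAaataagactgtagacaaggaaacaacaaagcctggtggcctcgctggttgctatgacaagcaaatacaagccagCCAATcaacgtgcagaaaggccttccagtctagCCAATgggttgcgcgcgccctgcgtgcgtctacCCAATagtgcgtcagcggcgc
Cdk1 held 3 CCAAT and 2 TTTGAA matches and Ccnb2 held 3 and 1. A match of letters describes the sequence and does not show that a factor binds there.

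Mature astrocyte markers changed in both directions. Of 28 tested, 8 rose and 2 fell (median 0.22). Aldoc (ENSMUSG00000017390, chr11:78322968-78327781), the aldolase isoform of astrocytes, had 6765, 7816, 6791 and 7699 TPM at P14 and 12568, 12604 and 12248 TPM at P21. The ages did not overlap and the P21 libraries lay close together, a 1.72-fold difference (log2 difference 0.78, SE 0.10, adjusted p = 0.0011). Clu, the secreted chaperone clusterin, had 8059, 10216, 8959 and 10062 TPM at P14 and 15057, 14766 and 13516 TPM at P21 (log2 difference 0.64, SE 0.12, adjusted p = 0.00413). For these very abundant genes the call depended on the scaling, since quantile normalization, which gives every library the same distribution, left Aldoc at 0.11, adjusted p = 0.497 and Clu at 0.059, adjusted p = 0.764.

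The other risen markers moved less. Ndrg2, a cytosolic astrocyte protein, rose from 2330.2 to 3268 TPM and Acsbg1, an acyl-CoA synthetase, from 748 to 925 TPM. Hepacam, an adhesion protein that anchors the chloride channel complex at astrocyte contacts, rose by 0.34 log2 units and Sox9, a gliogenic transcription factor, by 0.35. Ntsr2, a neurotensin receptor, rose from 2320.5 to 2849.8 TPM at an adjusted p of 0.046, which every fit without 1 library save that without P14 replicate 2 put above 0.05.

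Gfap, the intermediate filament of astrocytes, fell. It had 821, 684, 670.4 and 583 TPM at P14 and 453, 487 and 381 TPM at P21, so the groups did not overlap (log2 difference -0.64, SE 0.12, adjusted p = 0.00524), and its mean stood at 837 TPM at P7 and 375 at P28. Aqp4, the water channel of endfeet, fell from 653 to 515 TPM (log2 difference -0.34, SE 0.10, adjusted p = 0.0344) but its call ended after median-of-ratios rescaling (-0.29, adjusted p = 0.154) and in 6 of the 7 fits without 1 library.

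The transporters that define mature astrocytes were less clear. Slc1a2, the glutamate transporter GLT-1, had 377, 419, 430.4 and 424 TPM at P14 and 475, 483 and 472 TPM at P21 and Glul, glutamine synthetase, had 2027, 2507, 2333 and 2275 TPM at P14 and 2809, 2610.2 and 2965 TPM at P21. In both genes all P21 libraries lay above all P14 libraries, yet neither passed (adjusted p = 0.0628 and 0.0511). Slc1a3, the connexin genes Gja1 and Gjb6, the potassium channel Kcnj10 and Aldh1l1, a folate enzyme used to mark astrocytes, overlapped between the ages, with adjusted p from 0.285 to 0.972. Etnppl, ethanolamine phosphate phospho-lyase, stood apart: it had 33.6, 35.0, 33.97 and 87.9 TPM at P14 and 174, 183 and 315 TPM at P21, a rise of 4.71-fold (log2 difference 2.29, SE 0.40, adjusted p = 0.00805) in which P14 replicate 4 was the highest of its age. At P7 it averaged 2.34 TPM and at P60 308. In the fit of all 34 libraries none of the 28 markers was called in either direction. With each library dropped, 3 to 10 rose, the fewest without P14 replicate 3.

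Of 20 gliogenic and maturation transcription factors, 5 rose and none fell (median 0.23). Nfix, a nuclear factor I protein, had 42.3, 32.9, 35.5 and 35.2 TPM at P14 and 58.9, 70.5 and 64.7 TPM at P21, with the lowest P21 library above the highest P14 library (log2 difference 0.81, SE 0.10, adjusted p = 0.00102). Fezf2 rose from 17.1 to 24.0 TPM, Sox8 from 72.1 to 92.5 TPM and Lhx2 from 87.3 to 106 TPM (adjusted p = 0.0118, 0.0238 and 0.029), beside Sox9 above. Fezf2 also marks deep-layer projection neurons, and neuronal transcripts were higher at P21, as given below; their part in this rise was not tested. Across the leave-one-out fits, 2 to 5 rose, the fewest without P14 replicate 3 or P21 replicate 2 or P21 replicate 3.

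The glycolysis and glycogen list, with 26 genes tested, had 8 that rose and 2 that fell (median 0.16). Beside Aldoc, Pygm, muscle-type glycogen phosphorylase, had 58.2, 59.9, 56.8 and 81.1 TPM at P14 and 98.2, 101 and 116 TPM at P21 (log2 difference 0.72, SE 0.13, adjusted p = 0.00344), and Pfkm, phosphofructokinase, had 143, 158, 148 and 171 TPM at P14 and 213, 209 and 222 TPM at P21 (log2 difference 0.47, SE 0.080, adjusted p = 0.00308). In both genes the ages did not overlap. Hk1, hexokinase, rose from 45.8 to 64.5 TPM, Gys1, glycogen synthase, from 20.3 to 25.9 TPM, Gapdh from 3112 to 3877 TPM and Pdk2, a brake on pyruvate dehydrogenase, from 157 to 196 TPM. Eno2, the neuronal enolase, rose from 10.6 to 21.1 TPM. The 2 that fell were Slc16a1, the monocarboxylate transporter MCT1, had 199, 107, 134 and 219 TPM at P14 and 64.9, 70.4 and 82.3 TPM at P21 (log2 difference -1.12, SE 0.25, adjusted p = 0.0155), and Ldha, lactate dehydrogenase A, fell from 746 to 576 TPM (adjusted p = 0.0241). Slc16a1 lost its call without P21 replicate 1 or P21 replicate 2. The glycolysis and glycogen list had 5 to 10 risen (fewest without P14 replicate 3 or P21 replicate 1 or P21 replicate 2) and 0 to 2 fallen (fewest without P21 replicate 1 or P21 replicate 2) when 1 library was left out in turn. Slc16a1 is also a gene of brain endothelium, and it was highest in P14 libraries 1 and 4, where endothelial transcripts were highest. The part of endothelial RNA in its fall was not tested.

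Of 41 nuclear-encoded respiratory chain subunits, 18 fell (43.9%) and none rose (median -0.24), close to the 46.3% and -0.25 of all genes at 100 TPM or more. Ndufs8, a complex I subunit, had 442, 427, 466 and 439.8 TPM at P14 and 342, 329 and 304 TPM at P21 (log2 difference -0.45, SE 0.075, adjusted p = 0.00292), and Ndufs3, another, had 312, 309, 341 and 323 TPM at P14 and 242, 247 and 241 TPM at P21 (log2 difference -0.40, SE 0.070, adjusted p = 0.00353). Both were lower in every P21 library. The count fell to 4 after median-of-ratios rescaling and to 5 without P21 replicate 2, while the fit of all 34 libraries called 19 lower. Of 26 genes of fatty acid oxidation and ketone metabolism, 9 fell and 1 rose, but after quantile normalization 3 fell and 7 rose. Among them Etfb, an electron transfer flavoprotein, fell from 469 to 345 TPM (log2 difference -0.44, SE 0.089, adjusted p = 0.00622). Ppara, the nuclear receptor that drives fatty acid oxidation genes, was the one that rose (9.40, 10.7, 8.98 and 10.996 TPM at P14 and 16.8, 14.8 and 18.0 TPM at P21, log2 difference 0.67, SE 0.12, adjusted p = 0.00334). The fatty acid oxidation list had 1 risen and 3 to 8 fallen (fewest without P21 replicate 2) when 1 library was left out in turn.

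Of 37 ribosomal protein genes tested, 34 fell (91.9%), none rose, and the median was -0.49. Rpl6 had 191, 181, 200.2 and 182 TPM at P14 and 129, 124 and 129 TPM at P21 (log2 difference -0.56, SE 0.069, adjusted p = 0.000998), and the ages did not overlap. Rpl11 fell from 184 to 121 TPM. In fits that each lacked 1 library, 30 to 34 fell, the fewest without P14 replicate 1 or P14 replicate 3 or P21 replicate 1 or P21 replicate 3. Median-of-ratios rescaling kept the call for 29, quantile normalization for 18 and the fit of all 34 libraries for 18. Ribosomal protein genes have many processed pseudogenes, among which reads can be split, and how this was handled is not given in the sources used here.

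Of 18 metallothionein and glutathione genes, 4 rose and 2 fell. Mt1, a metallothionein that binds zinc and copper, had 9851, 9354, 9266 and 9181 TPM at P14 and 17482, 15114 and 16916 TPM at P21, a 1.75-fold difference (log2 difference 0.81, SE 0.10, adjusted p = 0.00102), and Mt2 rose from 2181 to 3491 TPM (log2 difference 0.67, SE 0.11, adjusted p = 0.00243). Gstm1 (ENSMUSG00000058135, chr3:108012255-108017973), a glutathione S-transferase of the mu class, had 1714, 1788, 1756 and 1844 TPM at P14 and 3334, 3138 and 3071 TPM at P21, with a spread within each age far smaller than the gap between them (log2 difference 0.84, SE 0.083, adjusted p = 0.000662). Gstm5 rose from 2493 to 3218 TPM (adjusted p = 0.023), while Gsta4, of the alpha class, fell from 372 to 264 TPM and Gss, glutathione synthetase, from 24.9 to 19.4 TPM. The metallothionein and glutathione list had 3 to 4 risen and 0 to 2 fallen (fewest without P14 replicate 1 or P14 replicate 3 or P14 replicate 4 or P21 replicate 2) when 1 library was left out in turn. Gstm genes are close copies of each other, so their counts may be shared in part.

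Cholesterol synthesis showed 7 fallen and 2 risen genes of 24, and 3 of each after rescaling by median of ratios. Tm7sf2, a sterol reductase, had 86.5, 107, 98.4 and 92.1 TPM at P14 and 67.5, 65.4 and 64.9 TPM at P21 (log2 difference -0.53, SE 0.084, adjusted p = 0.00231), and Mvk, mevalonate kinase, fell from 57.6 to 44.2 TPM (log2 difference -0.38, SE 0.075, adjusted p = 0.00616). Dhcr7, Ebp, Fdps, Nsdhl and Sqle fell by 0.26 to 0.37 log2 units. Insig1, the sterol sensor that retains SREBP, was among those that rose, from 81.9 to 117 TPM (adjusted p = 0.0203). Leaving out 1 library in turn, 2 to 6 fell, the fewest without P21 replicate 2. Of 18 genes of cholesterol efflux, Clu and Cyp46a1 (log2 difference 0.28, SE 0.095, adjusted p = 0.0468) rose, the latter with no call without 6 of the 7 libraries in turn. The part of neuronal transcripts, higher at P21 as given below, in the rise of Cyp46a1 was not tested. Of 17 serine, glycine and folate enzymes, Aldh1l2 (1.22 to 2.55 TPM) and Gldc (59.7 to 73.9 TPM) rose and Gcsh (184 to 134 TPM), Psph (162 to 136 TPM) and Dld (118 to 99.8 TPM) fell. These were 11.8% risen and 17.6% fallen, shares near those of all genes tested. The serine, glycine and folate list had 0 to 2 risen (fewest without P14 replicate 3 or P21 replicate 1 or P21 replicate 2) and 1 to 3 fallen (fewest without P14 replicate 2 or P14 replicate 3 or P21 replicate 2 or P21 replicate 3) when 1 library was left out in turn.

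Of 21 genes of glutamate and GABA handling, 4 fell (19.0%) and 2 rose (9.52%), shares near those of all genes tested. Slc38a3, the glutamine exporter SNAT3, had 509.9, 573, 507 and 560.2 TPM at P14 and 400.2, 362 and 343 TPM at P21 (log2 difference -0.54, SE 0.086, adjusted p = 0.00232), and Slc1a4, a serine and alanine exchanger, had 160.1, 179, 158 and 156 TPM at P14 and 117, 113 and 114 TPM at P21 (log2 difference -0.51, SE 0.074, adjusted p = 0.00169). Both fell with no overlap between the ages. Slc6a13, the GABA transporter GAT2 of the meninges and vessels, fell from 107 to 55.2 TPM (log2 difference -0.94, SE 0.11, adjusted p = 0.000772), and it is 1 of the 4 fibroblast genes that fell. The GABA-degrading enzyme Abat rose from 99.5 to 138 TPM and the monoamine oxidase Maob from 95.3 to 136 TPM (adjusted p = 0.00329 and 0.00615). Of 19 genes of potassium, sodium and bicarbonate handling, 3 rose and 3 fell. That is 15.8% each way, near the 11.7% risen and 16.9% fallen of all genes tested. Kcnj16 (67.7 to 87.0 TPM), a partner of Kcnj10, and Kcnk10 were among those that rose, and Fxyd6 (log2 difference -0.63, SE 0.094, adjusted p = 0.00183), a sodium pump regulator, Car8 and Atp1b1 fell. Quantile normalization gave 8 risen and 1 fallen there. The ion handling list had 0 to 4 risen (fewest without P21 replicate 2) and 1 to 3 fallen (fewest without P14 replicate 4 or P21 replicate 1) when 1 library was left out in turn.

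Of 15 connexin and endfoot genes, 4 fell and 2 rose. Gjb2, connexin 26, had 46.0, 52.1, 48.1 and 34.1 TPM at P14 and 27.7, 32.7 and 29.9 TPM at P21 (log2 difference -0.55, SE 0.14, adjusted p = 0.0146). This connexin is also one of meningeal cells. Dag1, dystroglycan, which ties endfeet to the basement membrane, fell from 115 to 94.6 TPM, Agrn, the proteoglycan agrin, from 25.6 to 19.3 TPM, and Aqp4 as above, while Dtnb, a dystrobrevin, rose from 18.8 to 23.1 TPM and Hepacam as above. After median-of-ratios rescaling the list had 2 in each direction, and Dag1 lost its call there and in 5 of the 7 fits without 1 library. The connexin and endfoot list had 0 to 2 risen (fewest without P14 replicate 1 or P14 replicate 3 or P21 replicate 1 or P21 replicate 3) and 0 to 3 fallen (fewest without P21 replicate 1) when 1 library was left out in turn. In the fit of all 34 libraries none was called.

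Of 23 receptors for transmitters and purines, 5 rose and 3 fell. Adra1a, the noradrenaline receptor alpha 1A, had 3.70, 3.95, 3.84 and 4.37 TPM at P14 and 6.76, 7.03 and 6.56 TPM at P21 (log2 difference 0.65, SE 0.12, adjusted p = 0.00439). Chrm1, a muscarinic receptor, rose from 1.28 to 3.11 TPM (log2 difference 0.85, SE 0.17, adjusted p = 0.00679), Adora1, the adenosine A1 receptor, from 29.0 to 41.4 TPM, and Grin2c, the NMDA receptor subunit of astrocytes and cerebellum, from 48.4 to 64.9 TPM (adjusted p = 0.00688 and 0.0192). Ednrb, the endothelin receptor B through which astrocytes respond to endothelin, fell with wide separation (479.5, 581, 477 and 444 TPM at P14 and 300.1, 294 and 267 TPM at P21, log2 difference -0.78, SE 0.10, adjusted p = 0.00109). The AMPA receptor subunit Gria2 (194 to 150.4 TPM) and the adenosine receptor Adora2b (148 to 118 TPM) fell as well. Neuronal transcripts were higher at P21, as given below, and their part in the rise of Chrm1 was not tested. The receptor list had 3 to 6 risen (fewest without P14 replicate 3 or P21 replicate 1 or P21 replicate 3) and 1 to 3 fallen (fewest without P21 replicate 1 or P21 replicate 2) when 1 library was left out in turn.

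Of 20 genes of factors that act on synapses, 3 rose (15.0%) and 4 fell (20%), shares near those of all genes tested. Il33, an alarmin that astrocytes release in development, had 53.3, 63.6, 56.0 and 69.3 TPM at P14 and 92.1, 76.4 and 81.1 TPM at P21 (log2 difference 0.46, SE 0.11, adjusted p = 0.0113). Lgi4, a secreted leucine-rich glioma protein, had 45.3, 45.7, 44.2 and 59.0 TPM at P14 and 74.8, 75.2 and 69.3 TPM at P21 (log2 difference 0.59, SE 0.11, adjusted p = 0.00386), and Nlgn3, neuroligin 3, rose from 26.1 to 33.6 TPM. Chrdl1, the secreted factor that promotes the switch of AMPA receptors at maturing synapses, fell from 84.8 to 65.2 TPM (log2 difference -0.37, SE 0.10, adjusted p = 0.0207), as did Gpc4, a glypican (17.9 to 13.9 TPM), Tgfb2 (28.9 to 23.3 TPM) and Thbs3, a thrombospondin (66.8 to 46.9 TPM). Chrdl1 lost its call after median-of-ratios rescaling and without P14 replicate 3, P21 replicate 2 or P21 replicate 3. The synaptic factor list had 2 to 3 risen and 1 to 4 fallen (fewest without P14 replicate 3 or P21 replicate 2 or P21 replicate 3) when 1 library was left out in turn. Other synaptogenic factors did not pass: Thbs1 (1.15 ± 0.363 TPM (SD, n = 4) at P14 and 1.02 ± 0.366 TPM (SD, n = 3) at P21) and Thbs4 (34.1 ± 3.70 TPM (SD, n = 4) at P14 and 36.0 ± 8.54 TPM (SD, n = 3) at P21) overlapped, and so did Sparcl1, or hevin, at 5602 ± 511 TPM (SD, n = 4) at P14 and 5384 ± 304 TPM (SD, n = 3) at P21, and its antagonist Sparc at 2133 ± 396 TPM (SD, n = 4) at P14 and 1788 ± 15.9 TPM (SD, n = 3) at P21.

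Genes of phagocytosis, by which astrocytes take up synapses, counted 4 risen and none fallen of 15 (median 0.25). Gas6, the bridging ligand of the TAM receptors, had 73.9, 73.1, 65.2 and 82.5 TPM at P14 and 94.5, 116 and 127 TPM at P21 (log2 difference 0.60, SE 0.11, adjusted p = 0.00456). Its receptors Mertk (109.6 to 159.8 TPM, log2 difference 0.53, SE 0.14, adjusted p = 0.0245) and Tyro3 (5.03 to 7.80 TPM, log2 difference 0.54, SE 0.14, adjusted p = 0.0205) and the engulfment adaptor Dock1 (13.8 to 17.5 TPM) rose too. Mertk lost its call without P14 replicate 1, P14 replicate 3 or P21 replicate 3, and in the fit of all 34 libraries none of the 15 was called. Among the fits with 1 library omitted, 1 to 4 rose, the fewest without P14 replicate 3.

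Of 19 collagens, 7 fell and none rose (median -0.39). Col3a1, a fibrillar collagen of fibroblasts, had 17.3, 11.1, 11.5 and 11.9 TPM at P14 and 5.22, 8.54 and 6.43 TPM at P21 (log2 difference -0.85, SE 0.18, adjusted p = 0.00854), and Col1a2 fell from 30.4 to 21.7 TPM. The fibroblast marker Dcn, decorin, had 195, 158, 158 and 117 TPM at P14 and 84.7, 96.0 and 101 TPM at P21 (log2 difference -0.72, SE 0.15, adjusted p = 0.00855), and of the 7 fibroblast genes 4 fell and 1 rose, with sums of 276 to 408 TPM at P14 and 196 to 251 TPM at P21. With each library dropped, 2 to 8 fell, the fewest without P21 replicate 1. The share of fibroblast RNA in the collagen result was not tested. Of 13 tenascins, lecticans and proteoglycans, Tnc, Ptprz1 and the link protein Hapln1 (118 to 85.6 TPM) fell, and Sdc4, the heparan sulfate proteoglycan syndecan 4, rose from 152 to 228 TPM (log2 difference 0.58, SE 0.10, adjusted p = 0.00283).

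Id3 and Id1, inhibitors of basic helix-loop-helix factors and targets of BMP signals, had 1864, 2259, 1944 and 1565 TPM at P14 and 1212, 1148 and 1257 TPM at P21 (log2 difference -0.65, SE 0.12, adjusted p = 0.00424) and 504, 393, 425 and 466 TPM at P14 and 301, 274 and 340.0 TPM at P21 (log2 difference -0.55, SE 0.11, adjusted p = 0.00518), and neither overlapped between the ages. Id2 (2233 to 1668 TPM), the ligands Bmp7 (47.5 to 35.4 TPM) and Bmp6 (27.8 to 19.4 TPM) and the antagonist Nog (6.48 to 4.21 TPM) also fell, while Id4 rose from 266 to 353 TPM, giving 6 fallen and 1 risen of 17. Across the leave-one-out fits, 3 to 5 fell, the fewest without P14 replicate 3 or P21 replicate 1. The Notch targets Hes1 (70.6, 55.0, 62.4 and 56.6 TPM at P14 and 44.3, 31.9 and 42.3 TPM at P21, log2 difference -0.63, SE 0.13, adjusted p = 0.00655), Heyl (24.9 to 16.1 TPM), Hey1 (108 to 86.0 TPM) and Nrarp (187 to 149 TPM) fell and the Notch modifier Lfng rose (144 to 195 TPM), so that 4 of 18 (22.2%) fell. The Notch list had 0 to 1 risen (fewest without P21 replicate 3) and 2 to 6 fallen (fewest without P21 replicate 1 or P21 replicate 2) when 1 library was left out in turn. Of 13 genes of the insulin-like growth factor system, Igf2 (132 to 77.2 TPM, log2 difference -0.77, SE 0.091, adjusted p = 0.000874), Igfbp4 (48.4 to 24.5 TPM), Igfbp6 (45.2 to 20.4 TPM) and Igfbp2 fell, and Insr, the insulin receptor, rose from 33.4 to 45.1 TPM. Of 7 fibroblast genes 4 fell and 1 rose, as given above. The part of fibroblast RNA in the falls of the growth factor list was not tested. The growth factor list had 0 to 3 risen (fewest without P14 replicate 2 or P14 replicate 3 or P21 replicate 2 or P21 replicate 3, most without P14 replicate 4) and 3 to 5 fallen when 1 library was left out in turn.

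Fgf9, Fgf1 and the ERK brakes Spred1 and Spred2 rose and Etv4, an ERK target, fell, of 17. Fgf9 reached 1 TPM only in the P21 libraries, so it could not be tested without any 1 of them. It lost its call after quantile normalization and with a replicate block. Spred2 had 5.47, 6.01, 5.06 and 5.90 TPM at P14 and 8.81, 9.81 and 8.01 TPM at P21 (log2 difference 0.58, SE 0.12, adjusted p = 0.00773). The FGF list had 1 to 4 risen (fewest without P21 replicate 3) and 0 to 2 fallen (fewest without P14 replicate 1 or P21 replicate 2, most without P14 replicate 2) when 1 library was left out in turn. In the Wnt list of 21, Sfrp5, a secreted Wnt antagonist, had 14.4, 11.8, 10.2 and 18.5 TPM at P14 and 29.9, 23.9 and 35.0 TPM at P21 (log2 difference 1.07, SE 0.19, adjusted p = 0.00457), Fzd2, Tcf7l2 and Wnt7b rose, and Nkd1, Lgr6 and Sp5 fell. The Wnt list had 2 to 4 risen (fewest without P14 replicate 3 or P21 replicate 1 or P21 replicate 3) and 0 to 6 fallen (fewest without P21 replicate 2, most without P14 replicate 2) when 1 library was left out in turn. Of 13 thyroid genes, the receptor Thra (29.0 to 42.3 TPM) and its partner Rxra (4.58 to 7.83 TPM) rose and the hormone transporter Slco1c1 (677, 672, 678 and 739 TPM at P14 and 565, 523 and 478 TPM at P21, log2 difference -0.41, SE 0.085, adjusted p = 0.00694) fell. Of the thyroid genes 15.4% rose and 7.69% fell, against 11.7% and 16.9% of all genes tested. The thyroid list had 1 to 3 risen (fewest without P14 replicate 3 or P21 replicate 2 or P21 replicate 3) and 1 fallen when 1 library was left out in turn. Of 9 hedgehog genes tested, limma called none. Hhip, the hedgehog-interacting protein, was lower in all P21 libraries (1.47 ± 0.202 TPM (SD, n = 4) at P14 and 0.940 ± 0.0963 TPM (SD, n = 3) at P21, adjusted p = 0.107).

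Of 18 circadian clock genes tested, 8 rose and 2 fell (median 0.31). Ciart, a repressor in the clock loop, had 28.6, 31.3, 28.4 and 28.3 TPM at P14 and 78.9, 54.2 and 51.1 TPM at P21, a 2.11-fold rise (log2 difference 1.02, SE 0.14, adjusted p = 0.00122). Dbp rose from 228 to 383 TPM, Tef from 74.3 to 109 TPM and Hlf from 21.8 to 31.4 TPM, the PAR-domain factors of clock output. Nr1d1, or REV-ERB alpha, had 109, 143, 124 and 117 TPM at P14 and 197, 196 and 177 TPM at P21 (log2 difference 0.62, SE 0.10, adjusted p = 0.00224), and its relative Nr1d2 had 47.3, 48.4, 45.0 and 53.3 TPM at P14 and 74.6, 71.6 and 73.5 TPM at P21 (log2 difference 0.59, SE 0.079, adjusted p = 0.00122). Per2 (7.45 to 13.1 TPM) and Per3 (19.9 to 25.6 TPM), period repressors, rose as well. Arntl, or BMAL1, the activator that REV-ERB represses, fell from 20.6 to 13.6 TPM (adjusted p = 0.00631), and so did Nfil3, which opposes Dbp, from 2.44 to 1.10 TPM (adjusted p = 0.0217). Cry1, Clock, Npas2 and Per1 did not pass. The labels give no time of day, so age and hour of collection cannot be told apart. In the fit of all 34 libraries 2 of the 18 rose and none fell. In fits that each lacked 1 library, 7 to 10 rose, the fewest without P21 replicate 1 or P21 replicate 3.

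**Figure D3:**
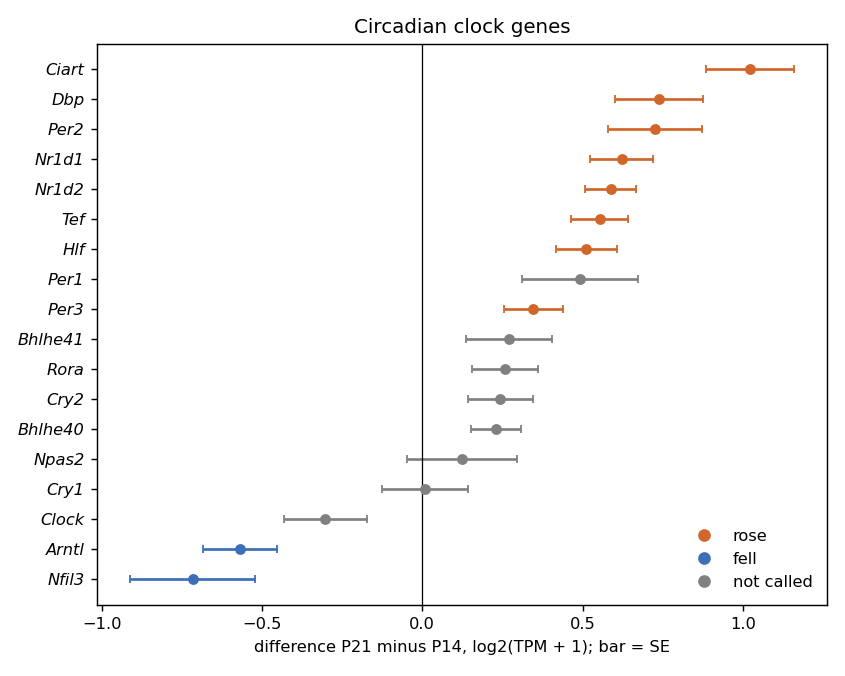
Difference between P21 and P14 in log2(TPM + 1), with its SE, for 18 circadian clock genes, with risen genes in orange, fallen genes in blue and the others in grey. Ciart, Dbp and Per2 lie farthest to the right, between 0.73 and 1.02, and Arntl and Nfil3 lie to the left, at -0.57 and -0.72.

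The clock promoters are shown because the activator pair of the loop binds the E-box CACGTG, a palindrome that reads the same on both strands. In the 250 bases before the RefSeq start it occurred in 5 of 16 clock genes with a promoter (31.3%) and in 6.86% of all. Of the 7 risen genes with a promoter, 2 held it, Ciart (chr3:95882229-95882478, minus strand) with 3 matches and Tef (chr15:81802423-81802672, plus strand) with 1. Capitals mark the E-box in these GRCm38.p6 sequences, 5′ to 3′.
Ciart: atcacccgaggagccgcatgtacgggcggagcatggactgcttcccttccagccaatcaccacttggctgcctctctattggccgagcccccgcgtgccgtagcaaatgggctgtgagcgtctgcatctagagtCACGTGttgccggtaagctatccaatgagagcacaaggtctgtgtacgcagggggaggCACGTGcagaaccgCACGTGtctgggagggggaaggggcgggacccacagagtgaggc
Tef: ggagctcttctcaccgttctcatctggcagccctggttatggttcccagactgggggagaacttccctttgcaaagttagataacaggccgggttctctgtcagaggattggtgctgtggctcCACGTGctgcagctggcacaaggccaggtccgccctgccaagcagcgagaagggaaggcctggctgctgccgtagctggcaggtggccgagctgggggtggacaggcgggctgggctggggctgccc
The other 5 risen genes with a promoter lack these letters in this window, which says nothing of sites farther away. The E-box was no more frequent among the risen clock genes than over the clock list.

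Of 22 interferon-stimulated genes, 5 rose and 1 fell. Rsad2, or viperin, had 2.39, 1.13, 2.26 and 3.61 TPM at P14 and 5.23, 5.63 and 9.74 TPM at P21 (log2 difference 1.24, SE 0.27, adjusted p = 0.0103), and Ifit1 had 6.25, 3.89, 7.10 and 8.51 TPM at P14 and 10.2, 13.2 and 12.0 TPM at P21 (log2 difference 0.82, SE 0.21, adjusted p = 0.0171). Ifit3, Ifit2 and Irf7 rose by 0.43 to 0.53 log2 units and Ifitm3, also a vascular gene, fell from 622 to 368 TPM. Without P21 replicate 2 only 1 of the 22 rose. Of 14 antigen presentation genes, Tapbp and Tap2 rose, and Psme1 (123 to 91.6 TPM), Psme2 (167 to 119 TPM), the proteasome activator pair, Pdia3 and Calr fell. The antigen presentation list had 1 to 3 risen (fewest without P14 replicate 2 or P14 replicate 3 or P21 replicate 1 or P21 replicate 3) and 3 to 6 fallen when 1 library was left out in turn. Of 14 complement genes, C3 rose at a low level (0.850 to 2.86 TPM), and Serping1, the C1 inhibitor, fell (87.3, 74.0, 81.2 and 84.1 TPM at P14 and 35.1, 56.0 and 53.0 TPM at P21, log2 difference -0.78, SE 0.15, adjusted p = 0.00543) with C2 and Cd55. The complement list had 0 to 1 risen (fewest without P21 replicate 2) and 1 to 5 fallen (fewest without P21 replicate 1 or P21 replicate 2, most without P21 replicate 3) when 1 library was left out in turn.

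Of 23 genes linked to reactive astrocytes, 7 fell and none rose. Serpina3n, a protease inhibitor, had 27.2, 33.0, 31.0 and 30.1 TPM at P14 and 20.8, 16.7 and 19.9 TPM at P21 (log2 difference -0.64, SE 0.11, adjusted p = 0.00278), and Ptx3, pentraxin 3, fell from 10.6 to 4.97 TPM (log2 difference -0.97, SE 0.14, adjusted p = 0.00174). S100a10 (181 to 97.4 TPM), Fbln5 (45.7 to 24.2 TPM), Timp1 (4.91 to 2.32 TPM), Gfap and Vim were the others. Leaving out 1 library in turn, 7 to 8 fell, the fewest without P14 replicate 1 or P14 replicate 3 or P14 replicate 4 or P21 replicate 1 or P21 replicate 2. The endoplasmic reticulum chaperone Hspa5, or BiP, had 672, 633, 628 and 689 TPM at P14 and 405, 405 and 487 TPM at P21 (log2 difference -0.60, SE 0.090, adjusted p = 0.00184), and Xbp1 fell from 168 to 119.6 TPM. With Hspa8, Hsp90b1, Sdf2l1 and Hspe1 this made 6 of 19 heat shock and unfolded protein genes that fell, while the inducible Hspa1b (6.77 to 15.1 TPM, log2 difference 1.08, SE 0.18, adjusted p = 0.00285) and Hspa1a (7.33 to 12.7 TPM) rose. After quantile normalization 2 of the 19 fell. The heat shock list had 1 to 3 risen (fewest without P14 replicate 2 or P14 replicate 3 or P21 replicate 2 or P21 replicate 3) and 2 to 6 fallen (fewest without P21 replicate 2) when 1 library was left out in turn. Those inducible copies are near-identical and share reads.

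Kif5a, a neuronal kinesin, had 6.22, 18.8, 19.8 and 6.98 TPM at P14 and 149.6, 287 and 130.1 TPM at P21, a 14.6-fold rise (log2 difference 3.85, SE 0.49, adjusted p = 0.00302). Camk2a, the alpha subunit of the synaptic calcium kinase, had 4.81, 10.4, 11.05 and 3.64 TPM at P14 and 59.1, 104 and 58.2 TPM at P21 (log2 difference 3.20, SE 0.40, adjusted p = 0.00252), and Nrgn, neurogranin, had 17.2, 31.8, 42.1 and 15.3 TPM at P14 and 144, 241 and 136 TPM at P21 (log2 difference 2.73, SE 0.40, adjusted p = 0.00448). Arc, an immediate early gene of synaptic plasticity, had 1.99, 3.52, 1.47 and 1.63 TPM at P14 and 21.5, 51.9 and 16.7 TPM at P21 (log2 difference 3.17, SE 0.38, adjusted p = 0.00169). In all of these P21 library 2 was the highest. No P21 library came down to the P14 range, which the rule for naming the largest rises required. Hpcal4, Nrsn1, Rims1, Zfp365, Psd, Fbxl16 and Cnih2, which are brain genes expressed in neurons, rose by 2.72 to 3.50 log2 units.

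Of 13 neuronal markers tested 6 rose and none fell (median 0.68), with list sums of 95.2 to 152 TPM at P14 and 370.3 to 636 TPM at P21. Slc17a7, the vesicular glutamate transporter of cortical excitatory neurons, had 9.12, 9.91, 12.5 and 6.20 TPM at P14 and 43.8, 74.0 and 54.6 TPM at P21 (log2 difference 2.49, SE 0.23, adjusted p = 0.000662), and Snap25, a presynaptic fusion protein, had 36.4, 31.5, 30.9 and 29.0 TPM at P14 and 56.4, 92.1 and 94.0 TPM at P21 (log2 difference 1.28, SE 0.17, adjusted p = 0.00162). Rbfox3 and Nefl rose as well. Gad1, the GABA-synthesizing enzyme of inhibitory neurons, had 11.4, 9.02, 8.43 and 9.51 TPM at P14 and 4.25, 7.86 and 13.96 TPM at P21, with overlap (adjusted p = 0.58), and Stmn2, of growing axons, had 21.5, 14.9, 18.8 and 12.8 TPM at P14 and 12.5, 22.8 and 21.1 TPM at P21 (adjusted p = 0.723). No neuronal marker was at 0 in all libraries of an age. In the fit of all 34 libraries 1 of the 13 was called. Among the fits with 1 library omitted, 6 to 8 rose, the fewest without P14 replicate 1 or P14 replicate 3 or P14 replicate 4 or P21 replicate 2 or P21 replicate 3.

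Mbp, myelin basic protein, had 31.3, 85.0, 97.2 and 27.8 TPM at P14 and 1160.1, 1179 and 315 TPM at P21, a 14.7-fold rise (log2 difference 3.84, SE 0.68, adjusted p = 0.00938), and Mobp, another basic myelin protein, had 5.48, 10.6, 13.8 and 6.21 TPM at P14 and 172, 181 and 62.2 TPM at P21 (log2 difference 3.73, SE 0.47, adjusted p = 0.00281). P21 library 3 was lower than the other two in both genes and still above every P14 library. The mRNAs of Mbp, Mobp, Camk2a and Arc are known to travel into myelin or dendrites. Among the other oligodendrocyte genes, Cnp (283 to 227 TPM) and Aspa (32.6, 34.6, 34.6 and 31.8 TPM at P14 and 22.2, 18.1 and 18.1 TPM at P21, log2 difference -0.75, SE 0.10, adjusted p = 0.0011) fell. Mog, Mag, Myrf, Opalin and Bcas1 rose by 1.14 to 1.71 log2 units, giving 7 risen and 2 fallen of 13, with sums of 480.0 to 552 TPM at P14 and 715 to 1804 TPM at P21. Myrf reached 1 TPM only in the P21 libraries, so it could not be tested without any 1 of them. Of the 7 oligodendrocyte genes tested when 5 TPM was required, 3 rose and 2 fell. With each library dropped, 3 to 7 rose, the fewest without P21 replicate 2. Of 10 precursor genes, Neu4 (3.20 to 11.7 TPM), Gpr17 (7.69 to 20.9 TPM), Pdgfra (11.3 to 25.0 TPM) and Lhfpl3 (8.54 to 19.2 TPM) rose. The precursor list had 1 to 5 risen (fewest without P14 replicate 3 or P21 replicate 2 or P21 replicate 3) and 0 fallen when 1 library was left out in turn. Gpr17 and Lhfpl3 lost their calls without P14 replicate 3, P21 replicate 2 or P21 replicate 3, and in the fit of all 34 libraries 1 precursor gene rose. Whether neurons, oligodendrocytes, their fragments or astrocytes carried these transcripts was not tested.

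**Figure D4:**
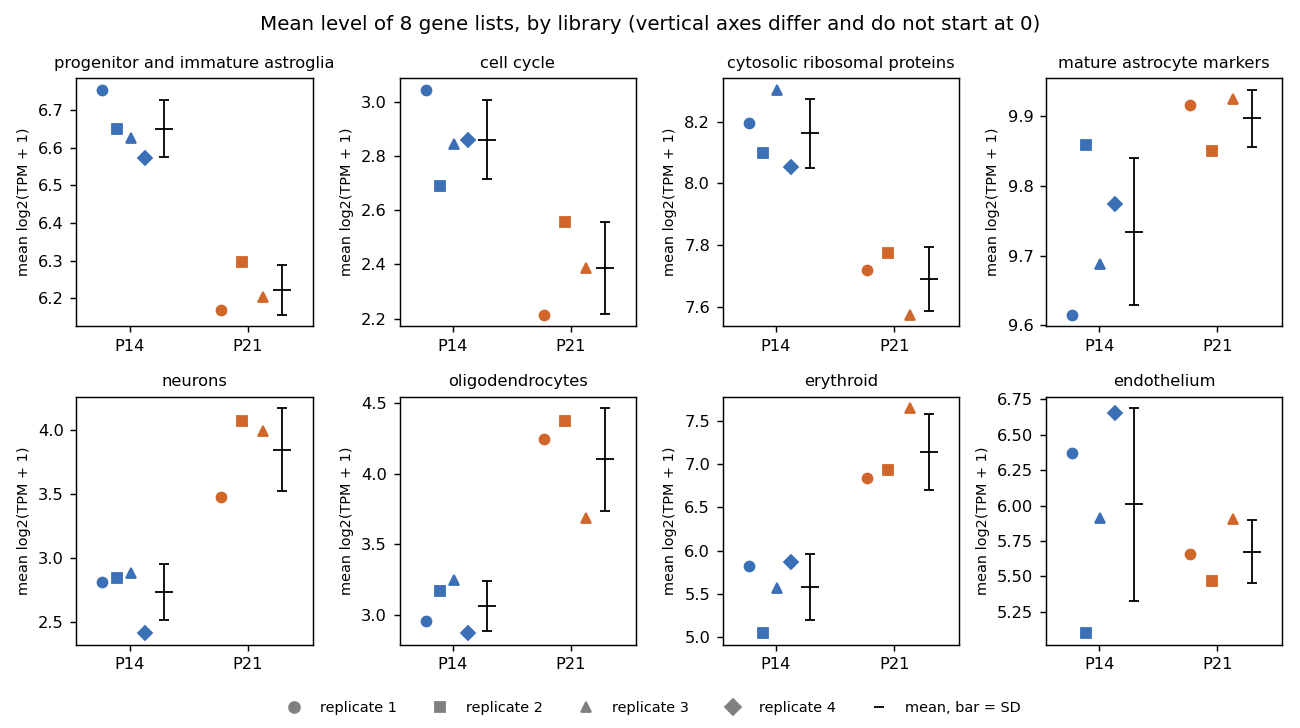
Mean log2(TPM + 1) of 8 gene lists in each library (vertical axes differ and do not start at 0), with mean and SD per age in black. The progenitor, cell cycle and ribosomal lists are lower and the neuronal, oligodendrocyte and erythroid lists higher in every P21 library, while the endothelial list overlaps, with P14 libraries 1 and 4 highest.

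Blood and vessel transcripts followed different courses. Of 8 erythroid genes tested, 6 rose and none fell (median 2.37). Hba-a2, an alpha globin, had 3621, 1376, 2682 and 2893 TPM at P14 and 13206, 13499.8 and 23141 TPM at P21 (log2 difference 2.68, SE 0.35, adjusted p = 0.00266), and Hbb-bt, a beta globin, had 822, 322, 512 and 809 TPM at P14 and 2989, 4099 and 7214 TPM at P21 (log2 difference 2.95, SE 0.43, adjusted p = 0.00444). Alas2, the erythroid enzyme of haem synthesis, rose from 14.6 to 71.1 TPM. The globin genes are close copies in pairs, so reads may be shared within a pair. Of 15 endothelial genes 1 was called, Ackr1, a chemokine receptor of venules, with 36.2, 19.7, 50.01 and 42.2 TPM at P14 and 12.0, 6.87 and 6.81 TPM at P21 (log2 difference -1.96, SE 0.33, adjusted p = 0.00543). The endothelial sums were 1448 to 4648 TPM at P14 and 2141 to 3059 TPM at P21, and Cldn5, the tight junction claudin, had 581, 222, 357 and 676 TPM at P14 and 189, 194 and 269.7 TPM at P21 (adjusted p = 0.114). Without P14 replicate 2, the library lowest in these genes, 7 of the 15 fell. Vtn, vitronectin of pericytes, fell from 2485 to 1214 TPM (log2 difference -0.95, SE 0.29, adjusted p = 0.0457), the only call of 12 pericyte and smooth muscle genes, and it was lost without any 1 of 6 of the 7 libraries. Of 14 microglial genes, Siglech rose at a low level (1.23 to 3.56 TPM), a call lost in 5 of the 7 fits without 1 library. Of 10 ependymal and choroid plexus genes, Ccdc153 rose and Kcnj13 fell, and of 8 genes of immature neurons 2 rose and none fell. The ependymal and choroid list had 0 to 4 risen (fewest without P21 replicate 2 or P21 replicate 3, most without P14 replicate 1) and 1 fallen when 1 library was left out in turn. The immature neuron list had 0 to 3 risen (fewest without P21 replicate 2 or P21 replicate 3) and 0 fallen when 1 library was left out in turn. Its 2 risen genes, Neurod2 and Tbr1, reached 1 TPM only in the P21 libraries. They could not be tested without any 1 of those libraries. When 5 TPM was required, 2 genes of the immature neuron list were tested and neither rose.

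Of 17 immediate early genes tested, Arc rose and none fell. Fos had 405, 58.8, 50.8 and 144 TPM at P14 and 109, 103 and 74.8 TPM at P21, and Egr1 had 81.1, 13.8, 14.7 and 28.4 TPM at P14 and 20.8, 25.2 and 21.5 TPM at P21. P14 libraries 1 and 4 were the highest for Fos, Egr1, Jun and Junb, and libraries 2 and 3 the lowest of all 7 for Fos. With P14 reduced to libraries 2 and 3, 10 of the 16 then tested rose, so this list rests on which P14 libraries stand for the age.

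Among the other large falls, Lypd2 had 18.1, 14.6, 23.3 and 9.69 TPM at P14 and 2.99, 4.28 and 5.05 TPM at P21 (log2 difference -1.73, SE 0.27, adjusted p = 0.00277), and Cysltr2, a leukotriene receptor, had 14.2, 5.83, 7.28 and 10.6 TPM at P14 and 1.68, 1.40 and 3.69 TPM at P21 (log2 difference -1.68, SE 0.32, adjusted p = 0.00615). Foxs1, Ppp1r14a, Ecscr and Arhgdib, genes of mural, endothelial or blood cells, fell, with log2 differences from -1.19 to -1.47, and each was highest in P14 library 1 or 4. Arhgdib lost its call in 6 of the 7 fits without 1 library. Snorc, a small membrane proteoglycan, fell from 6.33 to 1.55 TPM (log2 difference -1.50, SE 0.17, adjusted p = 0.000752), and Igsf1, an immunoglobulin superfamily membrane protein, had 48.6, 60.9, 52.5 and 44.8 TPM at P14 and 20.9, 23.0 and 17.8 TPM at P21 (log2 difference -1.29, SE 0.12, adjusted p = 0.000613). Tmsb10, an actin-binding thymosin of young cells, had 295, 162, 235 and 194 TPM at P14 and 90.9, 95.3 and 101 TPM at P21 (log2 difference -1.17, SE 0.18, adjusted p = 0.00283). Emp3, Ppic, Fam180a and Fgfbp1 fell, with log2 differences from -1.15 to -1.22. A transcript with a clone-based name, AL731706.2, which the rule for named genes leaves out, had 32.1, 59.5, 27.2 and 35.6 TPM at P14 and 0, 0 and 12.9 at P21 (log2 difference -3.98, SE 0.98, adjusted p = 0.0273), and it was singled out after its values were seen.

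At the bottom of the range, 583 genes were at 0 in all 4 P14 libraries and above 0 in all 3 at P21, against 21 the other way round. Of the 583, 313 were olfactory, vomeronasal or taste receptor genes, genes best known from sensory epithelia, and the median P21 mean of the set was 0.321 TPM. Olfr39 was listed at 0 in all P14 libraries and had 3.995, 2.28 and 1.87 TPM at P21. Over all 1555 receptor genes the sum was 47.5, 50.01, 49.5 and 58.7 TPM at P14 and 322, 343 and 216 at P21. Between 74 and 112 of them were above 0 in a P14 library and between 661 and 770 in a P21 library. Rises of genes near this level therefore cannot be told apart from the difference between the libraries in genes at 0.

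**Figure D5:**
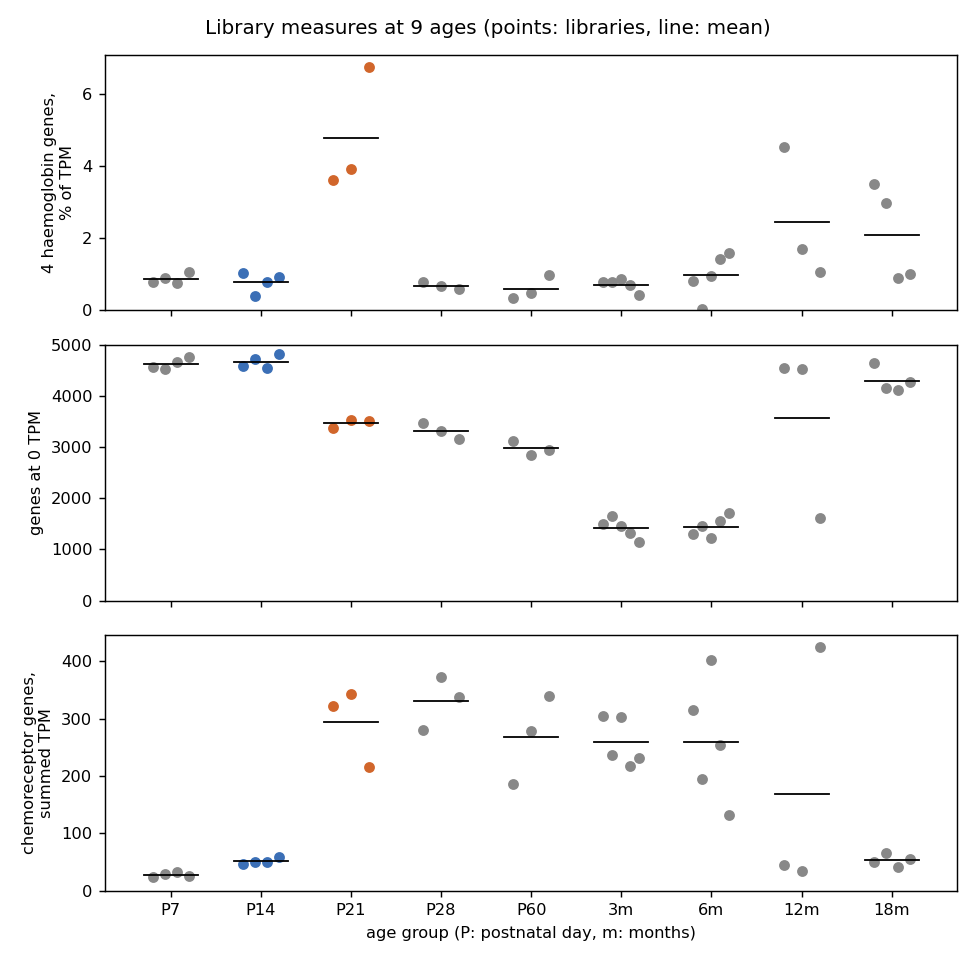
Share of TPM from 4 haemoglobin genes, number of genes at 0 TPM and summed TPM of chemoreceptor genes in all 34 libraries by age (P14 blue, P21 orange, other ages grey; the line is the mean). Haemoglobin peaks at P21 among the 5 youngest ages, and chemoreceptor sums rise from P14 to P21 as the number of genes at 0 drops.

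The same genes were also compared in libraries of neighbouring ages, which were not used in this comparison. Between P7 (4 libraries) and P28 (3 libraries), 1231 of the 1585 genes that rose were also higher at P28 and 12 lower, which is 77.7% against 24.8% of all genes tested. Of the 2282 that fell, 1858 were lower at P28 and 28 higher, which is 81.4% against 28.8%. The number of genes at 0 at P7 was close to that at P14 (4633 ± 111, SD, n = 4) and that at P28 close to P21 (3317 ± 165, SD, n = 3), so the number of genes at 0 moves with that comparison too. Age and the number of genes at 0 therefore cannot be told apart there either.

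The course of single genes over the neighbouring ages differed. Fabp7 averaged 4666 ± 825 TPM at P7, 468 ± 9.72 at P28 and 736 ± 621 at P60 (SD, n = 4, 3 and 3), so most of its decline in TPM came before P14, and the P60 libraries were widely spread. Gstm1 averaged 1882 ± 78.5 TPM at P7, 3459 ± 144 at P28 and 4595 ± 398 at P60, and the step from P14 to P21 was its first. Aldoc averaged 4057 ± 443 TPM at P7 and 12363 ± 799 at P28, so that its P21 mean of 12473 TPM lay within 1 SD of the P28 mean. Mbp averaged 16.7 ± 1.41 TPM at P7 and 882 ± 524 at P28. Haemoglobin did not follow this course: its share was 0.687 ± 0.104% at P28 and 0.877 ± 0.135% at P7 (SD, n = 3 and 4), both under every P21 library.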

How the data were processed

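Polyadenylated RNA of magnetically isolated cortical astrocytes was converted with SMART-Seq v4 and sequenced on a NovaSeq, per the labels' protocols. The authors deposited TPM for each library. Build mm10 and the tools STAR 2.7.1a, RSEM 1.2.28, Trim Galore 0.6.4 and DESeq2 1.36.0 are listed, without roles, per the submitters' processing notes. Each library sums to 1e+06 TPM over 20613 genes; 1 further gene had no values. Genes reaching 1 TPM in 3 or more of the 7 libraries were fitted with limma 3.58.1 (trend and robust empirical Bayes, statmod 1.5.0, R 4.3.3) on log2(TPM + 1), without covariates. The 7 libraries alone were fitted, because earlier results showed the spread to differ between ages. SE and adjusted p in the text come from this fit.

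The comparison, the 45 gene lists and the alternatives were chosen with earlier results of these data known. Named genes were the 12 largest rises and falls at 5 TPM or more and at 50 TPM or more without overlap, the 3 tested genes of lowest p in every list, and a fixed marker set, 181 in all. Other list members were named as examples after their values were seen, and some members are not reported here. Positions are from GENCODE mouse release 21 and promoters from RefSeq GRCm38.p6. A gene listed with more than 1 promoter counted as holding a motif if any of them held it. The sequence printed was the promoter with the most kinds of the marked motifs. The script was tested on simulated data. The 22 alternatives cover pseudocount (0.1), filters (none, 5 TPM, above 0 in all 7), median-of-ratios and quantile scaling, array weights, all 34 libraries with and without covariates, a replicate block, a minimum difference, each library left out and, chosen after seeing the data, the erythroid list left out, an endothelial covariate and P14 reduced to replicates 2 and 3 or to 1 and 4. Figures were drawn in Python 3.11.15 (pandas 2.3.3, matplotlib 3.10.9).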

Additional observations from a re-analysis of the deposited data

Results flagged for a closer look

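Of 181 named genes, 14 had a P14 library whose gap to the nearest of the other 3 took more of the group's range than Dixon's 95% critical value for 4 samples allows; chance gives about 1 in 20. Groups of 3, as at P21, were not examined. Library 4 stood high in Etnppl at 87.9 TPM (others 33.6 to 35.0), Slco1c1 at 739 (others 672 to 678), Pygm at 81.1 (others 56.8 to 59.9) and Lgi4 at 59.0 (others 44.2 to 45.7), and low in Mvk at 55.2 (others 58.1 to 58.7). Library 1 stood high in Col3a1 at 17.3 TPM (others 11.1 to 11.9), Spon2 at 6.45 (others 4.58 to 4.88), Fxyd6 at 166 (others 151 to 153) and Lhfpl3 at 14.03 (others 5.90 to 7.23). Library 2 stood high in Sparcl1 at 6364 TPM (others 5299 to 5434) and Ciart at 31.3 (others 28.3 to 28.6), and low in Fgf1 at 36.1 (others 38.9 to 39.1). Library 3 stood low in Folr1, a folate receptor of choroid plexus, at 8.03 TPM (others 12.9 to 13.9), and in Gas1 at 49.96 (others 59.5 to 61.0).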

How the results depend on the processing

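The count of genes called was 3867. It stayed within 1.5 times of this when 0.1 was added before the log (3823), when all genes were tested (4552), when 5 TPM was required (3212, of which 1007 higher), when only genes above 0 in all 7 libraries were kept (3790), after array weighting (4260), median-of-ratios rescaling (3859) or quantile normalization (3387), and, chosen after seeing the data, without the erythroid list (3335), with an endothelial covariate (4192), with P14 reduced to replicates 2 and 3 (3010, of which 1495 lower) or to replicates 1 and 4 (2699, of which 838 higher). It moved further in the fit of all 34 libraries (1699, of which 607 higher and 1092 lower, 1648 of them shared), in that fit with neuron and oligodendrocyte covariates (1123, of which 445 higher and 678 lower), and with a difference of at least 1 (423, of which 361 higher and 62 lower). Leaving out each library gave 2099 to 3568 calls, 737 to 1492 higher and 1362 to 2290 lower. The lowest totals came without P21 replicate 2 (2099), P14 replicate 3 (2555) and P21 replicate 3 (2698).

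Replicate numbers did not pair the libraries: same-number deviations correlated at -0.16, 0.18 and -0.23. A replicate block left 2492 calls (1104 higher and 1388 lower), 2316 of them shared.

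Of the 152 named genes called, only 145 could be tested in each fit without a P21 library. Of the 152, 110 kept their call in every fit without 1 library, 147 after median-of-ratios rescaling, 128 after quantile normalization, 58 in the fit of all 34 libraries and 29 with covariates. In that last fit 3 turned: Il33 (-0.018, adjusted p = 0.979), Snap25 (-0.063, adjusted p = 0.896) and Slc17a7 (-0.058, adjusted p = 0.904). The neuron covariate is the mean log2(TPM + 1) of a list that includes Snap25 and Slc17a7, and for Il33 the cause was not tested. The difference in genes at 0 kept its direction at thresholds of 0.1 TPM (-1189) and 1 TPM (-458). Depth is unknown, which leaves low levels without a detection limit.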
